A study of Mus musculus with 48 samples.

Results

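The genes described here are 9 transcripts of the naive and stem-like T cell program: the transcription regulators Tcf7, Lef1, Bach2, Satb1, Klf2 and Id3, and the receptors Ccr7, S1pr1 and Il7r. They were taken by symbol, 9 of the 34932 genes that carried a deposited estimated count, and every one of them was measured in all 48 libraries. Naive T cells and the stem-like T cells that sustain responses in chronic infection and tumors share much of this program. TCF1, the product of Tcf7, and LEF1 are related DNA-binding proteins that use beta-catenin or Groucho/TLE co-repressors as partners and keep T cells from terminal differentiation. CCR7 and S1PR1 steer naive cells into and out of lymph nodes, IL-7 receptor signals keep them alive, and KLF2 is known to drive S1pr1 transcription. Cells that enter effector programs in tissue are known to turn most of these genes down, so the levels were compared between tumor and node, between genotypes, and between sorted populations.

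RNA was sequenced from cells sorted out of subcutaneous B16F10 melanomas and out of the tumor-draining inguinal lymph nodes of C57BL/6J mice. B16F10 is a transplantable mouse melanoma line. The mice were either wild type (WT) or carried floxed Yap alleles with a Cre transgene driven by Cd4 regulatory sequence (Yap-cKO, whose strain also carried a floxed-stop EYFP reporter). YAP is the transcriptional co-activator that the Hippo kinase pathway restrains. The Cre acts in every cell that passes through the CD4+ CD8+ thymocyte stage, so both CD4+ and CD8+ T cells lose Yap, while most cells of the CD45+ CD4- CD8- gate come from unrecombined lineages. The sorted populations were CD4+ T cells, CD8+ T cells, and the CD45+ cells that carried neither marker (CD45+ CD4- CD8- cells). Each was taken as tumor-infiltrating lymphocytes (TILs) and from tumor-draining lymph nodes (TDLNs), which gave 12 groups of 4 libraries. Nothing in the labels ties a library to one mouse, so p-values measure the spread between these libraries. Total counts ran from 12656302 to 24213689 per library (median 17870047), and gene levels within and between groups are given as normalised counts-per-million values (CPM).

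The labels were checked first. Yap1 averaged 20.6 CPM in WT CD4+ TILs and 3.1 in Yap-cKO CD4+ TILs, and 20.4 against 4.3 in CD8+ TILs. In every TDLN group its mean lay between 1.68 and 2.32 CPM in both genotypes, so the deletion could not be seen there. The difference in TILs moved with the melanocyte genes, whose mean sum was 13212 CPM in WT against 1306 in Yap-cKO CD4+ TILs and 11859 against 1298 in CD8+ TILs. In the CD45+ CD4- CD8- TILs Yap1 was also higher in WT (4.14 against 1.83 CPM), with melanocyte sums of 1874 and 611 CPM. The part of melanoma RNA in Yap1 was not tested, so these values do not check the deletion in T cells. Gene-level Yap1 counts also include exons outside a floxed segment. Cd4, Cd8a and Cd3e matched the sorts, and mean Cd3e was between 2.0 and 9.7 CPM in the CD45+ CD4- CD8- groups, where B cell markers led in the node. The T cell TIL libraries did not hold equal amounts of T cell RNA. The summed CPM of 15 T-lineage genes was 1602, 4404, 6296 and 4517 in WT CD4+ TILs against 7024, 6485, 10643 and 6472 in Yap-cKO CD4+ TILs, and 1757, 2094, 5312 and 4388 in WT CD8+ TILs against 6790, 6062, 6304 and 5719 in Yap-cKO CD8+ TILs. The groups did not overlap for either sort. The summed CPM of 9 melanocyte genes moved the other way, from 6746 to 20993 in WT CD4+ TILs against 242 to 2935 in Yap-cKO CD4+ TILs, and from 4482 to 16373 against 82.9 to 3026 in CD8+ TILs, with 6.13 to 27.9 in all TDLN libraries. These sums differed with an exact permutation p of 0.0286, the smallest that 4 against 4 libraries allow (0.14 after Benjamini-Hochberg adjustment over 54 marker tests). The Y-linked genes Ddx3y and Eif2s3y exceeded 5 CPM in 18 libraries, all of them WT replicates 1 to 3. They were near 0 in WT replicate 4 and in every Yap-cKO library, so sex and genotype cannot be told apart beyond WT replicate 4. In bulk samples, fewer cells of a type and less RNA per cell cannot be told apart either.

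Tcf7 and Lef1 each start at more than one place, and the shares of their transcripts are given further on, so both Tcf7 windows and 2 of the 4 Lef1 windows are shown, with that of Il7r, the member whose level differed most between genotypes in CD8+ TILs. Each line is a promoter window from RefSeq (GRCm38.p6), 250 bases before the start and 50 after it, printed 5′ to 3′ on the strand of the gene. Capitals mark a match to one of the motifs searched on both strands: CTTTGA for TCF/LEF factors, GGAATG for TEAD factors, the DNA-binding partners of YAP, GTAAACA for FOXO factors, and GGGCGGG for Sp/Krüppel-like factors.
Tcf7, chr11:52282965-52283264, minus strand: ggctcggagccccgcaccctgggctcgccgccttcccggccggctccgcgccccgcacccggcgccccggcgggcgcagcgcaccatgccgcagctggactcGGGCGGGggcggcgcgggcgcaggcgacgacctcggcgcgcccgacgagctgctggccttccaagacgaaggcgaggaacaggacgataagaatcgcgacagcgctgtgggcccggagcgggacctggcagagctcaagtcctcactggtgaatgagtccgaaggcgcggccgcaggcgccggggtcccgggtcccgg
Tcf7, chr11:52282546-52282845, minus strand: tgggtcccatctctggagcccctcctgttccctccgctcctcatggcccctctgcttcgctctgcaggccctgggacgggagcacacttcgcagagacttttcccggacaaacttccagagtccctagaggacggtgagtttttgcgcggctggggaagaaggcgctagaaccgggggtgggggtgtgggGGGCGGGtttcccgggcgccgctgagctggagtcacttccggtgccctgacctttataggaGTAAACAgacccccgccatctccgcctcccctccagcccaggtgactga
Lef1, chr3:131110073-131110372, plus strand: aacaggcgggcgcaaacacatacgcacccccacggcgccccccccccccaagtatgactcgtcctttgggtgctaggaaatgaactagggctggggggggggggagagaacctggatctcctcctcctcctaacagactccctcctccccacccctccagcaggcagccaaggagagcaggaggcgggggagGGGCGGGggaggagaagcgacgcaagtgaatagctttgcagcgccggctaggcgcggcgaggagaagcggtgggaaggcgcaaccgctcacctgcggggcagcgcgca
Lef1, chr3:131112541-131112840, plus strand: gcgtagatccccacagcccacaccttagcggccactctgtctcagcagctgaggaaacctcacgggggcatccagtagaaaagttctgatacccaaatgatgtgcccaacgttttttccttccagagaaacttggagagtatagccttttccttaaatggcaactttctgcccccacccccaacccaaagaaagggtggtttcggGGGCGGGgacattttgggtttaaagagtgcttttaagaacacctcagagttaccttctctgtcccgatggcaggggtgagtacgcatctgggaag
Il7r, chr15:9529827-9530126, minus strand: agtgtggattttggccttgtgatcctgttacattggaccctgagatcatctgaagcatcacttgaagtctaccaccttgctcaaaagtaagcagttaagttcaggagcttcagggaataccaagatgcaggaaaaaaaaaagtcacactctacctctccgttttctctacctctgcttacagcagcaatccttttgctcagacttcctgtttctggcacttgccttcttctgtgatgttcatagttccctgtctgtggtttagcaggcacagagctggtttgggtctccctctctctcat

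The first Tcf7 window belongs to the start of transcript Tcf7-202 and the second to that of Tcf7-201. The first Lef1 window lies upstream of transcript Lef1-201 and the second belongs to Lef1-203. All 4 of these windows held the Sp/Krüppel-like motif, and only the Tcf7-201 window among the 5 also held the FOXO motif, which began 1 base after the RefSeq start. The Il7r window held none of the 4 motifs. Promoter windows were found for 7 of the 9 genes, 15 windows in all, and those of Ccr7 and S1pr1 were not analysed here. Among the 7 genes, the Sp/Krüppel-like motif occurred in 5, the TCF/LEF motif in 2 (Bach2, and Lef1 at a start that is not printed), the FOXO motif in 1 (Tcf7) and the TEAD motif in 1 (Id3). Counted by window, 8 of the 15 held the Sp/Krüppel-like motif, 2 the TCF/LEF motif, 1 the TEAD motif and 1 the FOXO motif. Some windows of the same gene overlap each other. Of 32851 RefSeq mouse promoters of the same length, 25.6% held the Sp/Krüppel-like motif, 16% the TCF/LEF motif, 14.7% the TEAD motif and 3.65% the FOXO motif. These percentages are per window and do not compare with the counts per gene. A match describes letters only.

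In the GENCODE M21 annotation of the same genome build, Tcf7 spans chr11:52252371-52283014 on the minus strand, Lef1 chr3:131110471-131224356 on the plus strand, and Il7r chr15:9505788-9530176 on the minus strand. Bach2 lies at chr4:32238804-32586108 and Id3 at chr4:136143497-136145755, both on the plus strand. Satb1 lies at chr17:51736187-51833290 on the minus strand and Klf2 at chr8:72319033-72321656 on the plus strand. Ccr7 lies at chr11:99144196-99155077 and S1pr1 at chr3:115710433-115715072, both on the minus strand. Ccr7, S1pr1 and Klf2 have 1 annotated transcript each, whereas Satb1 has 14, Lef1 8, Bach2 7, Il7r 4, Id3 3 and Tcf7 2, so transcript shares could be followed for 6 of the genes.

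Across the 12 groups the 9 genes followed different patterns. Levels of different genes were compared on the transcripts-per-million (TPM) scale, which divides by transcript length. In WT CD4+ T cells of the TDLN, Ccr7 was the highest of the 9 genes at 3903 ± 1275 TPM (SD, n = 4) and Tcf7 came next at 1028 ± 80.7 TPM. Satb1, S1pr1, Lef1 and Klf2 followed with means between 438 and 628 TPM. Il7r, Bach2 and Id3 were the lowest, at 99.2, 61.1 and 53.3 TPM. In WT CD4+ TILs the same genes lay much closer together, from 265 TPM for Ccr7 to 14.0 TPM for Bach2, and Tcf7 averaged 197 TPM.

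Tcf7 and Lef1 separated T cells from the CD45+ CD4- CD8- cells. Mean Tcf7 level was 1128 and 1028 TPM in Yap-cKO and WT CD4+ T cells of the TDLN and 767 and 729 TPM in the CD8+ T cells there. It was between 335 and 147 TPM in the 4 T cell TIL groups and between 24.9 and 10.5 TPM in the CD45+ CD4- CD8- groups. Neighbours in that order did not overlap at 4 places: between CD4+ and CD8+ T cells of the node, between node and tumor T cells, between tumor T cells and the CD45+ CD4- CD8- groups, and between the Yap-cKO CD45+ CD4- CD8- TILs and the remaining groups of that gate. Lef1 had the same 3-tier arrangement, with means of 396 to 485 TPM in TDLN T cells, 77.2 to 138 TPM in T cell TILs and 2.61 to 12.5 TPM in the CD45+ CD4- CD8- groups, and the tiers did not overlap. On the CPM scale, the WT CD45+ CD4- CD8- cells of the TDLN held 1.57% of the Tcf7 level and 2.31% of the Lef1 level of WT CD4+ T cells there.

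Ccr7 instead separated nodes from tumors whatever the population. All 6 TDLN groups had higher mean Ccr7 (2778 to 3903 TPM) than all 6 TIL groups (244 to 476 TPM), and the highest of the 24 TIL libraries (877 TPM) lay below the lowest of the 24 TDLN libraries (2051 TPM). Klf2 also had higher means in TDLN groups (353 to 673 TPM) than in TIL groups (134 to 206 TPM), but its libraries overlapped, with the highest TIL library at 312 TPM and the lowest TDLN library at 282 TPM. S1pr1, Bach2 and Satb1 were also highest in the nodes by group mean, although neighbours in their order of groups overlapped throughout. In TPM, 1, 1 and 3 of the 24 TIL libraries reached the lowest TDLN library of these genes. In CPM the S1pr1 libraries did not overlap between nodes (at least 623 CPM) and tumors (at most 529 CPM). Mean Ccr7, S1pr1, Klf2, Bach2 and Satb1 in the CD45+ CD4- CD8- cells of the WT TDLN were 87.2%, 65.4%, 164%, 162% and 56.4% of the CPM level in WT CD4+ T cells of that tissue, so these genes were not T cell-restricted in this dataset. The CD45+ CD4- CD8- gate of the TDLN carried 8733 to 10356 CPM of 8 B cell marker genes, and B cells are known to use CCR7, S1PR1 and BACH2.

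**Figure D1:**
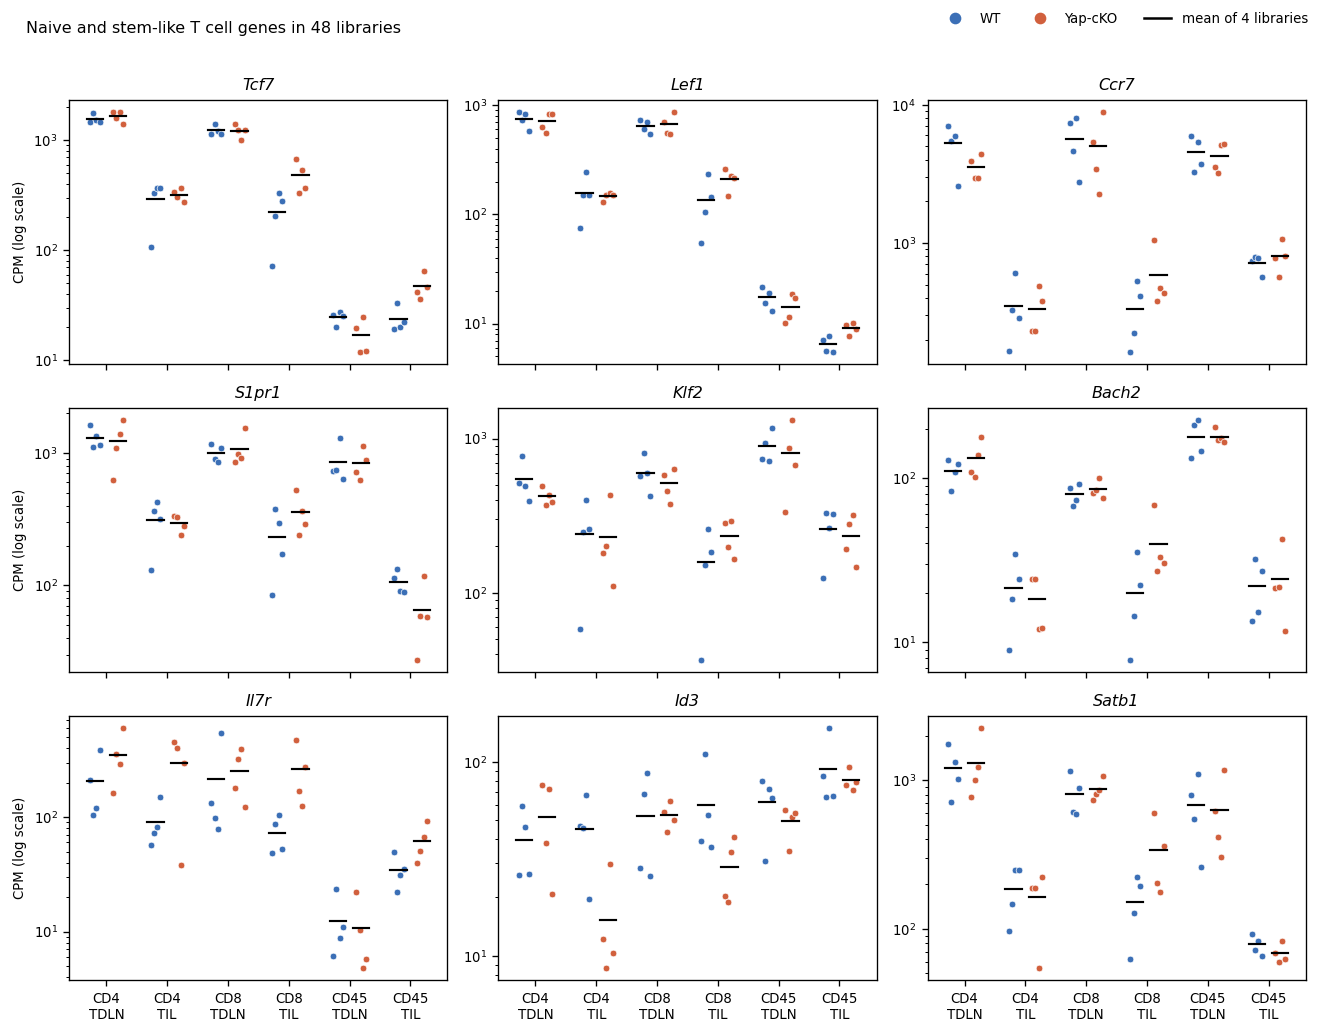
Normalised CPM (log axis) of each of the 9 genes in every library, one panel a gene, with the 12 groups on the horizontal axis, WT and Yap-cKO in different colors and a bar at each group mean (n = 4). Tcf7 and Lef1 drop from node T cells to TILs and again to CD45+ CD4- CD8- cells, whereas Ccr7 is higher in every TDLN library (at least 2263 CPM) than in every TIL library (at most 1063 CPM). S1pr1 is also separate (at least 623 against at most 529 CPM), and Klf2 overlaps between the tissues (TDLN from 337 CPM, TIL up to 430 CPM).

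Il7r and Id3 fitted neither pattern. The 4 highest group means of Il7r were all in Yap-cKO T cells, at 177 and 172 TPM in CD4+ TILs and TDLN cells and 142 and 120 TPM in CD8+ TILs and TDLN cells, with SDs of 76.7 to 117 TPM and with overlap between all neighbours. Id3, an inhibitor of E proteins that is linked to stem-like CD8+ T cells, lay between 53.3 and 84.0 TPM in 10 of the groups. Its lowest group means were those of Yap-cKO CD8+ TILs (39.0 ± 12.4 TPM) and Yap-cKO CD4+ TILs (18.3 ± 6.79 TPM).

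The next question was how far these genes differed between T cells of the tumor and T cells of its draining node. Most of them were several-fold lower in TILs, in both sorts and both genotypes. A gene was called when edgeR's quasi-likelihood test gave a Benjamini-Hochberg adjusted p under 0.05 over all genes tested and an absolute log2 fold change above 1, and values of that test are given below as log2 fold change with its SE. In WT CD4+ T cells 7 of the 9 genes were called lower in TILs, where 14.4% of all 14009 tested genes were called lower. In WT CD8+ T cells it was 8 of 9, with 15.2% of 13894 genes called lower. In Yap-cKO T cells it was 7 of 9 in CD4+ cells, against 6.07% of 13565 genes, and 7 of 9 in CD8+ cells, against 5.01% of 13347 genes. No member was called higher in any of these 4 comparisons, where 22.9%, 22.5%, 12.4% and 10.9% of genes were. Node and tumor libraries did not overlap, with tumors lower, for 6, 7, 6 and 8 of the 9 genes, against 19.6%, 18.1%, 12.6% and 10.4% of all genes in the same order. The median log2 fold change of the 9 genes was -2.26 in WT CD4+, -2.24 in Yap-cKO CD4+, -2.08 in WT CD8+ and -1.29 in Yap-cKO CD8+ cells, whereas that of all tested genes was between -0.04 and 0.02.

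Tcf7 stood at 1459, 1774, 1530 and 1484 CPM in the 4 WT CD4+ libraries of the TDLN and at 107, 329, 371 and 371 CPM in the WT CD4+ TILs. The tumor libraries all lay below the node libraries, and replicate 1 was the lowest. The log2 fold change was -2.39 (SE 0.373, edgeR adjusted p = 0.000269), a 5.24-fold lower level. In Yap-cKO CD4+ cells Tcf7 stood at 1820, 1599, 1802 and 1398 CPM in nodes and 337, 304, 365 and 276 CPM in tumors, which was 5.08-fold lower (log2 fold change -2.34, SE 0.276, edgeR adjusted p = 0.00044). In CD8+ cells the level was 5.43-fold lower in WT TILs, with 1147, 1412, 1219 and 1148 CPM in nodes against 72.3, 204, 332 and 284 CPM in tumors. In Yap-cKO CD8+ cells it was 2.44-fold lower (log2 fold change -1.29, SE 0.243, edgeR adjusted p = 0.0043), with 1404, 1234, 1005 and 1249 CPM in nodes and 678, 333, 538 and 372 CPM in tumors. Node and tumor libraries did not overlap in any of the 4 comparisons.

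Lef1 moved alongside Tcf7. It was 4.79-fold lower in WT CD4+ TILs than in the node (868, 727, 838 and 576 CPM in nodes, against 75.2, 151, 246 and 152 CPM in tumors). It was 4.72-fold lower in Yap-cKO CD4+, 4.69-fold lower in WT CD8+ and 3.01-fold lower in Yap-cKO CD8+ TILs, with edgeR adjusted p between 0.000214 and 0.00114. Node and tumor libraries were separate each time.

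Bach2, a repressor that restrains effector differentiation, was 5.11-fold lower in WT CD4+ TILs, with 129, 82.9, 109 and 122 CPM in nodes against 8.89, 18.4, 34.4 and 24.2 CPM in tumors. It was 7.01-fold lower in Yap-cKO CD4+, 3.92-fold lower in WT CD8+ and 2.09-fold lower in Yap-cKO CD8+ TILs (log2 fold change -1.07, SE 0.292, edgeR adjusted p = 0.026). The last of these calls was lost when transcript lengths were used as offsets (log2 fold change -0.75, adjusted p = 0.136) and in 4 of the single omissions (without TIL replicate 2, 3 or 4 or node replicate 3, with -1.41 to -0.91 over all omissions). Satb1, a chromatin organizer of T cell development, was 6.43-fold lower in WT CD4+ TILs, with 1750, 717, 1328 and 1014 CPM in nodes and 96, 147, 250 and 247 CPM in tumors. It was 7.69-fold lower in Yap-cKO CD4+, 5.24-fold lower in WT CD8+ and 2.49-fold lower in Yap-cKO CD8+ TILs. The call in Yap-cKO CD8+ cells (log2 fold change -1.32, edgeR adjusted p = 0.0242) was lost without TIL replicate 2, 3 or 4 or node replicate 4, with -1.70 to -1.09 over all omissions.

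Klf2 changed less. In WT CD4+ cells it stood at 518, 770, 492 and 394 CPM in nodes and 58.4, 247, 397 and 261 CPM in tumors, groups that overlapped, with a log2 fold change of -1.15 (SE 0.452, edgeR adjusted p = 0.053). DESeq2 called it there (-1.16, adjusted p = 0.0196), as did edgeR without the count filter, with transcript length offsets and with the replicate block. In Yap-cKO CD4+ cells the log2 fold change was -0.87 (SE 0.377, adjusted p = 0.134). In CD8+ cells it was called in both genotypes, 3.73-fold lower in WT TILs and 2.08-fold lower in Yap-cKO TILs. The Yap-cKO call (log2 fold change -1.06, edgeR adjusted p = 0.0118) was lost without TIL replicate 2 or 4 or node replicate 4, with -1.20 to -0.92 over all omissions.

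Among the receptors, Ccr7 differed most. WT CD4+ libraries held 6989, 5500, 5917 and 2576 CPM of it in nodes and 167, 330, 609 and 286 CPM in tumors, a 15-fold lower level (log2 fold change -3.91, SE 0.462, edgeR adjusted p = 3.31e-05). It was 16.9-fold lower in WT CD8+, 10.6-fold lower in Yap-cKO CD4+ and 8.17-fold lower in Yap-cKO CD8+ TILs. Even the highest TIL library of the CD8+ sort, Yap-cKO replicate 1 at 1049 CPM, lay below the lowest node library of that sort, at 2263 CPM. S1pr1 was 4.19-fold lower in WT CD4+ TILs (131, 365, 425 and 317 CPM, against 1103 to 1623 CPM in nodes), 3.97-fold lower in Yap-cKO CD4+, 4.22-fold lower in WT CD8+ and 2.92-fold lower in Yap-cKO CD8+ TILs.

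Il7r and Id3 were the members that did not follow the others in both genotypes. Il7r was called lower in WT TILs, 2.24-fold in CD4+ cells (log2 fold change -1.17, SE 0.441, edgeR adjusted p = 0.0458) and 2.82-fold in CD8+ cells (-1.49, SE 0.556, adjusted p = 0.0471), although node and tumor values overlapped in both. These calls were lost when transcript lengths were used as offsets (adjusted p = 0.0654 and 0.0629), and each was lost in 5 single omissions. In CD8+ cells these were every TIL library in turn and the highest node library, WT replicate 4 at 542 CPM, without which the log2 fold change was -0.50. In CD4+ cells they were TIL replicates 1, 2 and 3 and node replicates 1 and 4, with log2 fold changes of -1.50 to -0.67 over all omissions. The CD8+ call was also lost with the replicate block (-1.06, adjusted p = 0.136). In Yap-cKO T cells the tumor to node difference of Il7r was -0.16 in CD4+ and 0.06 in CD8+ cells. Id3 differed from the node by 0.18 in WT CD4+ and 0.20 in WT CD8+ TILs and was not called. In Yap-cKO CD4+ TILs it was 3.42-fold lower (log2 fold change -1.77, SE 0.5, edgeR adjusted p = 0.0297), with 76.0, 38.1, 72.4 and 20.9 CPM in nodes and 12.3, 8.66, 29.8 and 10.4 CPM in tumors, which overlapped. In Yap-cKO CD8+ TILs its log2 fold change was -0.82 (adjusted p = 0.0724), without overlap.

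**Figure D2:**
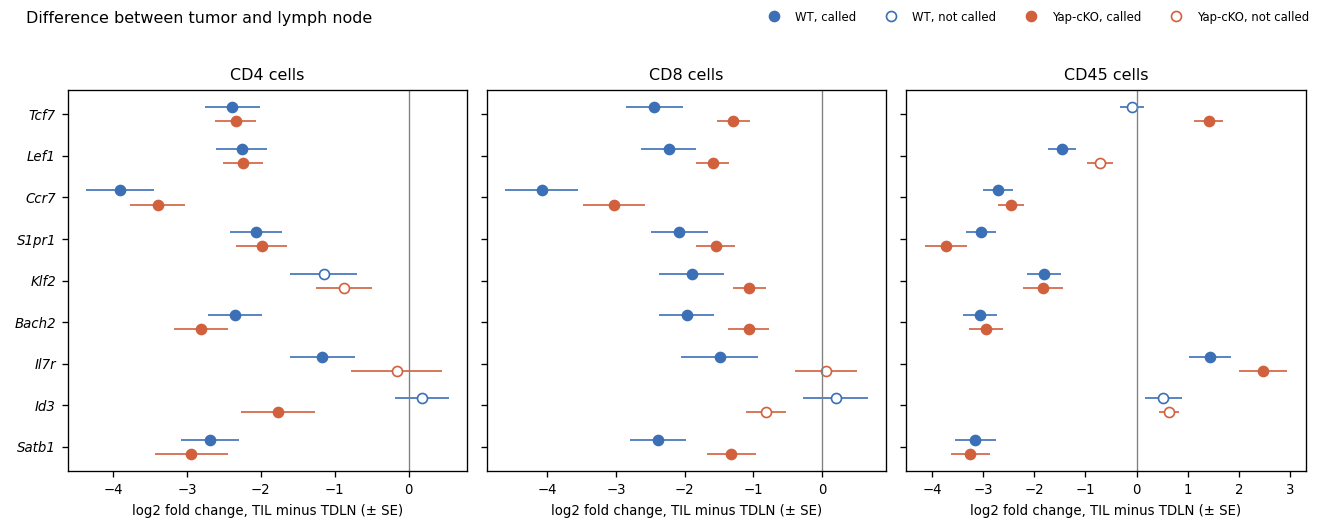
Log2 fold change, TIL against TDLN, of each gene in the 6 comparisons within a sorted population and genotype, with bars of 1 SE and filled points for genes called by edgeR (n = 4 against 4). Ccr7 lies at -3.91 and -4.08 in WT CD4+ and CD8+ T cells, while Il7r lies near 0 in Yap-cKO T cells and above 0 in CD45+ CD4- CD8- cells.

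These tissue differences depend on the scale in WT cells. When libraries were scaled to the 15 T-lineage genes in place of TMM factors, the median of all genes moved from -0.03 to 1.58 in WT CD4+ and to 1.55 in WT CD8+ cells. The share of genes called higher and lower went from 22.9% and 14.4% to 57.2% and 0.892% in WT CD4+ cells, and from 22.5% and 15.2% to 57.8% and 1.02% in WT CD8+ cells. On that scale Tcf7 (-1.14), Ccr7 (-2.57), Bach2 (-1.12) and Satb1 (-1.36) were still called lower in WT CD4+ TILs, whereas Lef1 was at -0.94, S1pr1 at -0.78, Klf2 at 0.02 and Il7r at 0.15, and Id3 was called higher at 1.85. In WT CD8+ TILs Tcf7 (-1.12), Ccr7 (-2.74) and Satb1 (-1.10) were still called lower and Id3 was called higher at 1.96. In Yap-cKO CD4+ cells, where the median of all genes moved to 0.24, the 7 genes were called lower on both scales, and 17.9% and 3.36% of all genes were called higher and lower. In Yap-cKO CD8+ cells Lef1 (-1.25), Ccr7 (-2.66) and S1pr1 (-1.22) were called and Tcf7 stood at -0.96, with 14.9% and 2.0% of all genes called higher and lower. The part of the non-T cell RNA in the WT differences was not tested otherwise.

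Of 20 companions of the naive state, among them the transcription factor Foxo1 and the quiescence genes Btg1 and Tob1, 17 were called lower in WT CD4+ TILs, 15 in Yap-cKO CD4+, 17 in WT CD8+ and 10 in Yap-cKO CD8+ TILs, and none was called higher. The shares of all genes called lower there were 14.4%, 6.07%, 15.2% and 5.01%. The companion lists were chosen with earlier results of these data known, so their counts are descriptions and not separate support. The companions' medians were -2.05, -2.02, -1.86 and -1.16. With T-lineage scaling 5, 13, 1 and 6 of them were called lower in the same order and none higher, with medians of -0.57, -1.76, -0.47 and -0.83. In WT CD4+ TILs Myb, Treml2 and Nsg2 had log2 fold changes of -3.38, -2.62 and -3.37. Of 14 effector-associated genes, 8 were called higher and 3 lower in WT CD4+ TILs, 11 and 0 in Yap-cKO CD4+, 8 and 2 in WT CD8+ and 10 and 2 in Yap-cKO CD8+ TILs, where 22.9%, 12.4%, 22.5% and 10.9% of all genes were called higher. In Yap-cKO CD4+ TILs the inhibitory receptor gene Pdcd1 was at 681 ± 109 CPM against 63.5 ± 26.2 in the node, and Id2 and Tbx21 had log2 fold changes of 2.39 and 4.78. In WT CD8+ TILs Havcr2 and Gzmb, which encode TIM-3 and granzyme B, rose by 7.17 and 5.23, whereas Itgae fell by 4.33.

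The partners of TCF1 and LEF1 were mixed. Of 15 such genes, 5 were called lower and 2 higher in WT CD4+ TILs, 7 and 2 in WT CD8+ TILs, and 5 and 0 in Yap-cKO TILs of either sort. In WT CD4+ TILs 14.4% of all genes were called lower and 22.9% higher. In WT CD8+ TILs it was 15.2% and 22.5%, in Yap-cKO CD4+ TILs 6.07% and 12.4%, and in Yap-cKO CD8+ TILs 5.01% and 10.9%. With T-lineage scaling 0 of the partners were called lower and 5 higher in WT CD4+ TILs, where 0.892% and 57.2% of all genes were. The co-repressor gene Tle4 was among the lower ones in WT CD4+ TILs (log2 fold change -2.34), as was Bcl9 (-2.27). The related factors Tcf7l2 and Tcf7l1 were the higher ones (2.92 and 2.46), at 6.45 and 8.74 CPM in these libraries. Of the IL-7 receptor partners, 6 of 10 tested were lower in WT CD4+ TILs and 7 of 10 in WT CD8+ TILs. They included Jak1 and Stat5a, which carry the IL-7 signal, and Mcl1 and Bcl2l11, which encode a survival and a death factor of the BCL2 family. In Yap-cKO TILs 2 were lower and 1 higher in CD4+ cells, where Cish, a STAT5 target, had a log2 fold change of 1.91, and in CD8+ cells 0 were lower and 1 higher. With T-lineage scaling 1 of these partners was called lower and 2 higher in WT CD4+ TILs, and 1 and 1 in WT CD8+ TILs. On that scale 1.02% and 57.8% of all genes were called lower and higher in WT CD8+ TILs. In Yap-cKO TILs 1 partner was then lower and 4 higher in CD4+ cells, and 0 and 1 in CD8+ cells. Among genes of the sphingosine-1-phosphate system, 4 of 11 tested were higher and 1 lower in WT CD4+ TILs, against the same 22.9% and 14.4% of all genes. S1pr3 had the smallest p there, with 24.2 ± 14.5 CPM in TILs against 0.387 ± 0.136 CPM in the node, and Arhgef1 was the lower one (-1.95). With T-lineage scaling 7 of these 11 genes were called higher and 0 lower in WT CD4+ TILs, where 57.2% and 0.892% of all genes were. S1pr3 and Spns2 are known for vascular cells, and the summed CPM of 10 endothelial genes was 207 to 576 in WT CD4+ TILs and 152 to 196 in WT CD4+ node cells, with Cdh5 at 17.3 against 0.026 CPM. The part of endothelial RNA was not tested.

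In the CD45+ CD4- CD8- cells, where Cd3e was near 0, 5 of the members were lower in TILs of both genotypes. S1pr1 was 8.24-fold lower in WT and 13.3-fold lower in Yap-cKO TILs, with 636 to 1307 CPM in WT nodes and 89.2 to 132 CPM in WT tumors. Bach2 was 8.34-fold and 7.65-fold lower, Satb1 8.86-fold and 9.51-fold, Ccr7 6.56-fold and 5.52-fold, and Klf2 3.52-fold and 3.56-fold. Lef1 was called lower in WT cells (2.76-fold) and had a log2 fold change of -0.71 in Yap-cKO cells. In this gate 18.0% of the 13898 genes tested in WT and 18.5% of the 13734 tested in Yap-cKO cells were called lower, and 21.9% and 21.8% higher. B cell markers gave 8733 to 10356 CPM in node libraries and 268 to 1909 CPM in tumor libraries of this gate, and their part in the differences was not tested.

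Il7r went the other way there. It was 2.71-fold higher in WT TILs (49.2, 22.2, 31.1 and 35.5 CPM, against 6.11, 23.7, 8.81 and 11 CPM in nodes) and 5.59-fold higher in Yap-cKO TILs (39.4, 50.8, 66.8 and 92.7 CPM, against 22.1, 10.3, 4.80 and 5.78 CPM). The WT call (log2 fold change 1.44, SE 0.410, edgeR adjusted p = 0.0138) was lost without WT TIL replicate 1. Tcf7 was 2.66-fold higher in Yap-cKO CD45+ CD4- CD8- TILs than in the node (log2 fold change 1.41, SE 0.289, edgeR adjusted p = 0.00167), with 42.0, 36.4, 65.2 and 45.9 CPM against 19.7, 11.9, 24.9 and 12 CPM. In WT cells of this gate its difference was -0.09.

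Transcripts of the genes were followed as shares of the gene's summed TPM, as Salmon had divided the reads. Of 72 comparisons of a transcript's share between TILs and TDLNs, none passed an adjusted p of 0.05. The smallest two-sided exact permutation p was 0.0286, the floor for 4 against 4 libraries, and its adjusted value was 0.0791. The shares that did not overlap are therefore given as values. Lef1-203, which encodes a protein of 330 residues and begins at the second Lef1 window printed above, held 36.3%, 42.5%, 34.9% and 38.3% of Lef1 in WT CD4+ node libraries and 33.8%, 20.2%, 9.19% and 17.7% in WT CD4+ TILs. In Yap-cKO CD4+ cells its mean share was 38.7% in nodes and 17.8% in tumors. Lef1-201, which encodes 396 residues, held the larger share in tumors, 49.1% against 31.2% in WT CD4+ and 50.7% against 30.6% in Yap-cKO CD4+ cells. In CD8+ cells the Lef1-203 shares overlapped, with means of 26.5% against 38.6% in WT and 31.5% against 40.9% in Yap-cKO cells.

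Tcf7-201, whose start lies within the second Tcf7 window, held 74.3% of Tcf7 in WT CD4+ TILs against 68.4% in nodes, and 78.7% against 67.6% in WT CD8+ cells, without overlap. In Yap-cKO cells its shares overlapped, with 70.02% against 66.2% in CD4+ (66.8% to 72.0% in TILs and 63.7% to 68.1% in nodes) and 73.4% against 67.6% in CD8+ cells (68.3% to 79.9% and 66.0% to 69.8%). Tcf7-201 and Tcf7-202 both encode 302 residues. Il7r-201, which encodes the full receptor chain of 458 residues, had a lower share in TILs in all 4 comparisons, with 69.7% against 79.7% in WT CD4+, 69.2% against 76.7% in WT CD8+, 66.1% against 81.1% in Yap-cKO CD4+ and 69.7% against 80.2% in Yap-cKO CD8+ cells, again without overlap. Bach2-201 held 24.3% in Yap-cKO CD4+ TILs against 44.9% in nodes and 25.0% against 43.1% in Yap-cKO CD8+ cells, and its shares overlapped in WT cells (29.2% against 48.4% in CD4+ and 25.1% against 33.8% in CD8+).

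**Figure D3:**
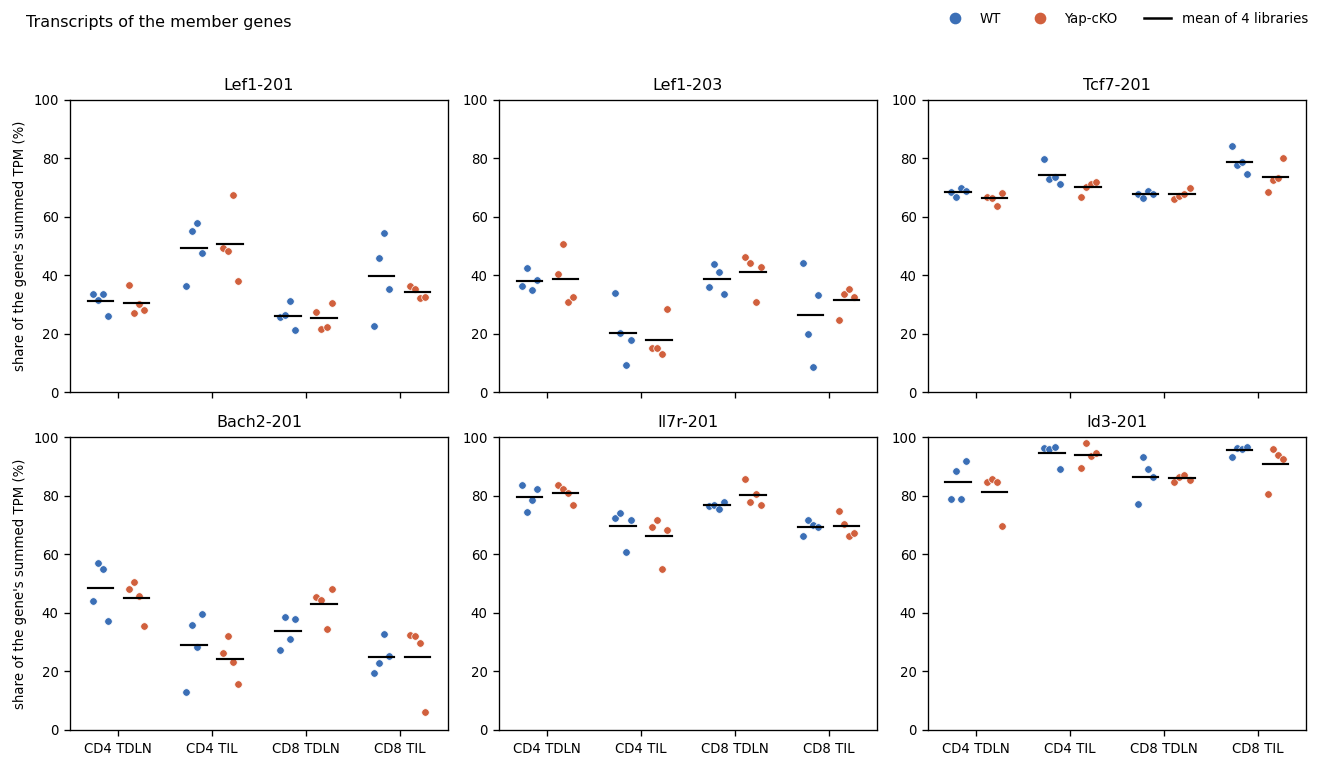
Percentage of each gene's summed TPM held by single transcripts in the CD4+ and CD8+ libraries of TDLN and TIL, with points for libraries and bars for group means (n = 4). The Lef1-203 points of WT CD4+ TILs (9.19% to 33.8%) lie below those of WT CD4+ node libraries (34.9% to 42.5%).

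Yap-cKO and WT cells of the tumors were compared next. Y-linked expression, WT replicate 4 aside, and melanocyte reads differed along with genotype. Loss of Yap in T cells therefore cannot be told apart from these. In CD8+ TILs 1 of the 9 genes, Il7r, was called, and it was higher in Yap-cKO cells. Of all 14121 genes tested there 12.2% were called (3.03% higher and 9.14% lower). Il7r stood at 48.2, 87.4, 104 and 52.3 CPM in WT CD8+ TILs and at 477, 169, 124 and 274 CPM in Yap-cKO CD8+ TILs. All Yap-cKO libraries lay above all WT libraries. The level was 3.66-fold higher (log2 fold change 1.87, SE 0.431, edgeR adjusted p = 0.0245). This call did not hold under every setting: the adjusted p was 0.123 with the replicate block, 0.125 with Y-linked expression as a covariate, 0.257 after scaling to T-lineage genes (log2 fold change 0.67) and 0.21 without WT replicates 1 and 2, the WT CD8+ libraries lowest in T-lineage genes (log2 fold change 1.79). It was also lost when WT replicate 1, 2 or 4 or Yap-cKO replicate 2 or 4 was left out, with adjusted p from 0.0125 to 0.0722 over all single omissions.

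The other members did not pass the test in CD8+ TILs, and 7 of these 8 had positive log2 fold changes. The WT libraries held 72.3, 204, 332 and 284 CPM of Tcf7 and the Yap-cKO libraries 678, 333, 538 and 372 CPM. The groups did not overlap, although WT replicate 3 and Yap-cKO replicate 2 were almost equal, and the log2 fold change was 1.13 (SE 0.419, edgeR adjusted p = 0.0901; DESeq2 1.11, adjusted p = 0.0431). Satb1 (1.19, SE 0.466), Bach2 (1.01, SE 0.453), Ccr7 (0.84), Lef1 (0.68), S1pr1 (0.65) and Klf2 (0.60) had edgeR adjusted p of 0.106 to 0.38, and their values overlapped. Id3 was the exception in sign, with WT libraries at 39.1, 110, 53.4 and 36.2 CPM and Yap-cKO libraries at 20.5, 18.9, 34.3 and 41.1 CPM (log2 fold change -1, SE 0.399, adjusted p = 0.11). The median of the 9 genes was 0.84, that of all genes 0.08, and 5 of the 9 had an unadjusted p under 0.05, as had 33.9% of all genes. Groups did not overlap for 2 of the 9 genes, where 20.6% of all genes did not overlap.

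**Figure D4:**
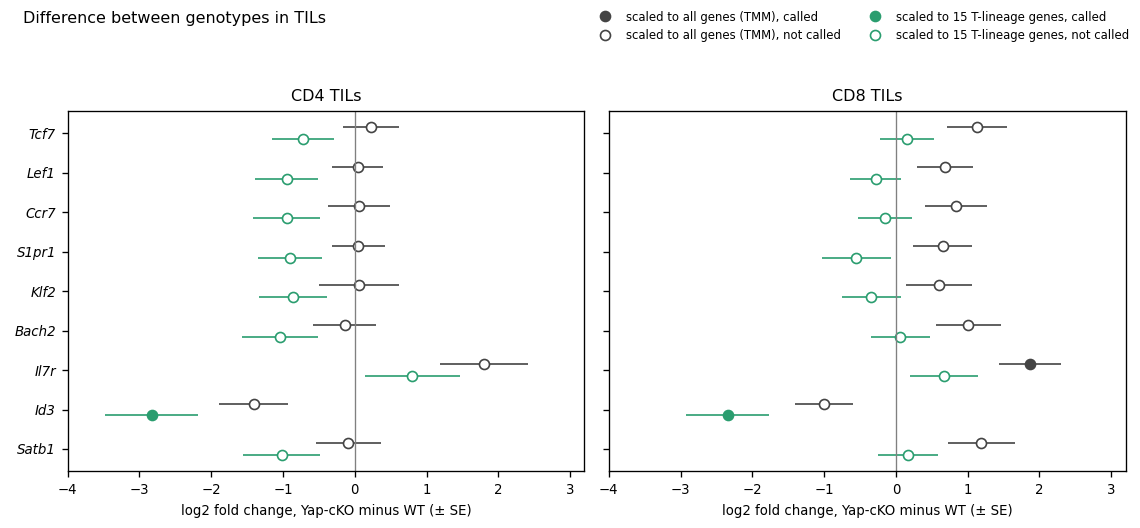
Log2 fold change, Yap-cKO against WT, of each gene in CD4+ and CD8+ TILs, with bars of 1 SE and filled points for genes called by edgeR (n = 4 against 4). Colors mark scaling to all genes (TMM) and to the T-lineage genes. With TMM factors only Il7r in CD8+ TILs (1.87) is called, and Id3 lies at -1.41 in CD4+ TILs and -1 in CD8+ TILs. With T-lineage scaling Id3 is called lower in both sorts.

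In CD4+ TILs none of the 9 genes was called by edgeR. An unadjusted p under 0.05 was found for 2 of the 9 and for 24.5% of all genes. Of 14205 genes tested, 8.02% were called (1.36% higher and 6.66% lower). These 2 genes were Il7r and Id3, and DESeq2 called both. Il7r stood at 57.1, 73.2, 81.7 and 151 CPM in WT CD4+ TILs and at 451, 406, 38.1 and 300 CPM in Yap-cKO CD4+ TILs. Of the Yap-cKO libraries 3 were above every WT library and replicate 3 was below all of them, so the log2 fold change of 1.80 (SE 0.617) had an edgeR adjusted p of 0.102. Id3 stood at 46.6, 45.8, 67.8 and 19.7 CPM in the WT libraries and at 12.3, 8.66, 29.8 and 10.4 CPM in the Yap-cKO libraries, 2.66-fold lower (log2 fold change -1.41, SE 0.481, adjusted p = 0.101). Yap-cKO replicate 3 was again the library that overlapped WT. Without it, both genes were called, Il7r at 2.20 and Id3 at -2.02. The other 7 genes had log2 fold changes between -0.14 and 0.23, and Tcf7 averaged 321 CPM in the Yap-cKO and 294 CPM in the WT libraries.

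Because WT TIL libraries held fewer T-lineage reads and more melanocyte reads, the levels were also expressed per 1000 counts of the 15 T-lineage genes. Tcf7 was then 70.6 ± 10.1 in WT and 43.0 ± 6.21 in Yap-cKO CD4+ TILs, without overlap (58.9 to 82.2 against 34.3 to 48), and 66.4 ± 23.1 against 76.3 ± 20.1 in CD8+ TILs. Lef1 was 38.5 ± 6.16 against 20.02 ± 4.13 in CD4+ TILs (33.6 to 47.0 against 14.9 to 23.4). Ccr7 (63.3 to 104 against 32.9 to 59.3), S1pr1 (67.6 to 82.8 against 22.6 to 50.8) and Bach2 (4.18 to 5.55 against 1.13 to 3.75) were also lower there without overlap. Klf2, Satb1 and Il7r overlapped in CD4+ TILs. The share of all genes without overlap was not computed on this scale, so the separations are not a result about these members. In the edgeR fit scaled to T-lineage genes, 25.3% of all genes were called lower in Yap-cKO than in WT CD4+ TILs. In CD8+ TILs it was 43.3%. Il7r was 25.1 ± 12.7 in WT and 41.4 ± 22.5 in Yap-cKO CD8+ TILs, which overlapped, so its mean was higher in Yap-cKO cells on both scales. Id3 was lower on both scales. It was at 13.6 ± 10.7 in WT and 1.87 ± 0.644 in Yap-cKO CD4+ TILs, and at 23.3 ± 20.6 against 4.69 ± 2.00 in CD8+ TILs. The groups did not overlap in either sort (4.36 to 29.1 against 1.33 to 2.80, and 8.26 to 52.8 against 3.01 to 7.19). Marker sums of other cell types differed as well. WT CD4+ TILs held an endothelial sum of 517, 550, 576 and 207 CPM against 122, 108, 205 and 79.8 CPM in Yap-cKO CD4+ TILs. WT CD8+ TILs held 453, 2275, 563 and 160 CPM against 89.7, 65.6, 90.2 and 68.8 CPM. Neither sort overlapped (exact permutation p = 0.0286, adjusted 0.14). The mean fibroblast sum was 355 in WT against 38.1 CPM in Yap-cKO CD4+ TILs, without overlap. In CD8+ TILs it was 308 against 71.9 CPM, with overlap. By CPM, WT CD4+ TIL replicate 3, WT CD8+ TIL replicate 2 and Yap-cKO CD4+ TIL replicate 3 were the highest of their groups in Id3 and in both sums. WT replicate 4 was the lowest in Id3 and in both sums in either sort. Yap-cKO CD8+ TIL replicate 4, the highest of its group in Id3, was not the highest in either sum.

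**Figure D5:**
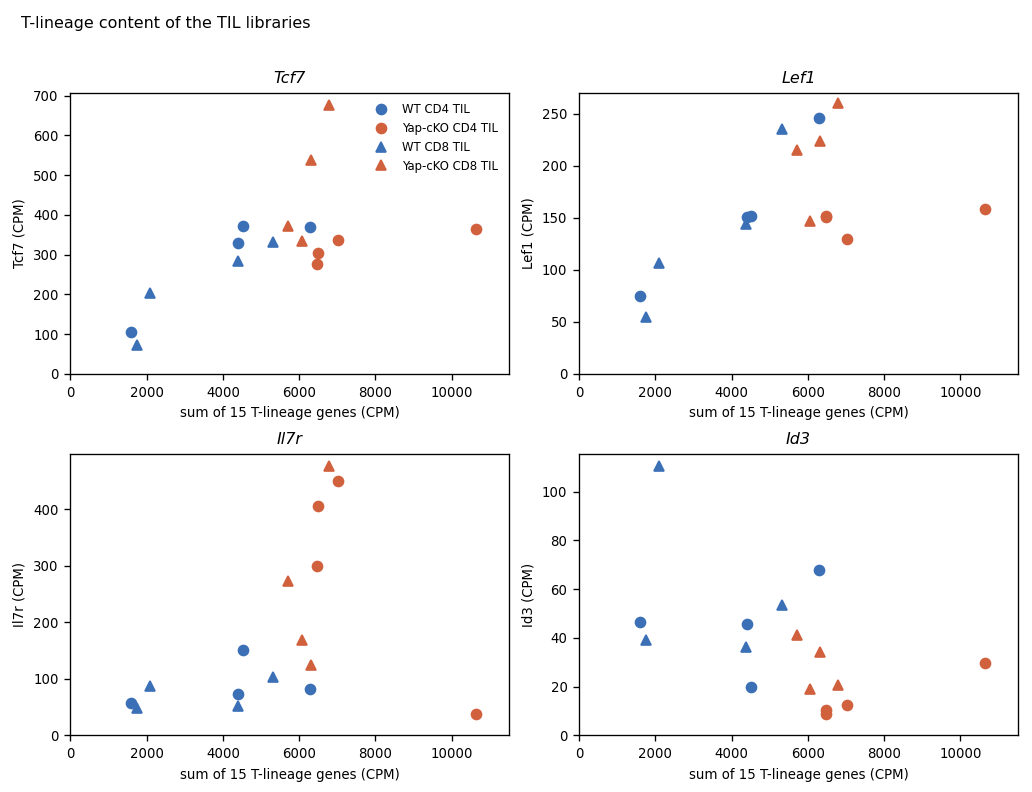
CPM of Tcf7, Lef1, Il7r and Id3 against the summed CPM of 15 T-lineage genes in the CD4+ and CD8+ TIL libraries, one panel a gene. WT and Yap-cKO have different colors and the sorts different symbols (n = 4 a group). All Yap-cKO libraries lie at a higher T-lineage sum than all WT libraries of the same sort. In CPM, Id3 overlaps between the genotypes in both sorts, and Tcf7 overlaps in CD4+ but not in CD8+ TILs.

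In the edgeR fit with T-lineage scaling the median of all genes moved from 0.14 to -1.16 in CD4+ TILs and from 0.08 to -1.16 in CD8+ TILs, and the share of genes called higher and lower became 0.12% and 25.3%, and 0.0425% and 43.3%. Id3 was called lower in both sorts in that fit (log2 fold change -2.83, SE 0.646, adjusted p = 0.00754 in CD4+ TILs and -2.34, SE 0.579, adjusted p = 0.00882 in CD8+ TILs). Of the remaining members Il7r stayed positive (0.80 and 0.67), Tcf7 was at -0.72 in CD4+ and 0.15 in CD8+ TILs, and Lef1 was at -0.95 and -0.28. Id3 was also expressed in the sorted CD45+ CD4- CD8- TILs, where the WT mean was 91.8 ± 39.6 CPM and the Yap-cKO mean 80.2 ± 10.1 CPM. The part of melanoma, endothelial and fibroblast RNA in the genotype differences, that of Id3 included, was not tested otherwise. Against WT replicate 4, the WT library without Y-linked expression, the Yap-cKO CD8+ TILs were all higher in Il7r (52.3 CPM against 124 to 477 CPM) and in Tcf7 (284 CPM against 333 to 678 CPM), whereas its Id3 level in CD4+ TILs (19.7 CPM) lay within the Yap-cKO range.

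In CD45+ CD4- CD8- TILs none of the 9 genes was called by edgeR, and DESeq2 called none. An unadjusted p under 0.05 was found for 2 of the 9 and for 17.8% of all genes. Of 13628 genes tested there, 0.991% were called. Tcf7 had the smallest adjusted p of the members, with WT libraries at 19.1, 33.5, 20.2 and 22.4 CPM and Yap-cKO libraries at 42.0, 36.4, 65.2 and 45.9 CPM, a 1.96-fold higher level without overlap (log2 fold change 0.97, SE 0.232, edgeR adjusted p = 0.0736). Il7r was at 0.83 (adjusted p = 0.205). The T-lineage sum of this gate ran from 198 to 234 CPM in WT libraries and from 199.9 to 255 CPM in Yap-cKO libraries.

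In the nodes no member was called in any population by edgeR or DESeq2, and none had an unadjusted p under 0.05. Few genes of any kind were called there: 0.0462% of 12992 genes in CD4+ cells, 0.0158% of 12651 in CD8+ cells and 0.0596% of 13432 in CD45+ CD4- CD8- cells. Il7r had the largest difference in CD4+ cells, with WT libraries at 210, 104, 119 and 388 CPM and Yap-cKO libraries at 162, 356, 289 and 603 CPM, which overlapped. In CD8+ node cells every member lay within 0.26 of 0 on the log2 scale. Ccr7 spread widely inside groups, from 2576 to 6989 CPM in WT CD4+ and from 2263 to 8892 CPM in Yap-cKO CD8+ node libraries, so differences of that size could not be resolved.

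Whether the genotype difference in tumors exceeded that in nodes was tested with the tissue by genotype interaction over 16 libraries of a sort. No member passed. In CD8+ cells the term was 1.12 for Tcf7 (unadjusted p = 0.0327, edgeR adjusted p = 0.275) and 1.55 for Il7r (unadjusted p = 0.0651), where 0.422% of 14937 genes were called. In CD4+ cells it was -1.81 for Id3 (SE 0.671, adjusted p = 0.204), where 1.36% of 15087 genes were called, and Id3 was called in the T-lineage scaled fit (-3.35, adjusted p = 0.0139). In CD45+ CD4- CD8- cells the term for Tcf7 was 1.46 (SE 0.378, edgeR adjusted p = 0.23; DESeq2 1.5, adjusted p = 0.0361). Of 14871 genes edgeR called 0 there (percentage called 0.0), with 1246 at an unadjusted p under 0.05.

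Among companions in TILs, the TCF/LEF partners held calls in both sorts. Ctnnb1, which encodes beta-catenin, was lower in Yap-cKO TILs, at 205 ± 51.8 against 550 ± 183 CPM in CD4+ cells (log2 fold change -1.30, edgeR adjusted p = 0.0327) and 230 ± 43.6 against 611 ± 198 CPM in CD8+ cells (-1.37, adjusted p = 0.0185). Tcf7l1 and Tcf7l2 were lower in both sorts, by 2.08 and 1.89 log2 units in CD4+ and 1.87 and 1.73 in CD8+ TILs, and Tle4 was higher in Yap-cKO CD8+ TILs (1.11). These made 3 of 15 genes lower in CD4+ TILs, and 3 lower and 1 higher in CD8+ TILs. Of all genes tested, 1.36% were called higher and 6.66% lower in CD4+ TILs, and 3.03% higher and 9.14% lower in CD8+ TILs. Of the 20 naive companions 0 were called in CD4+ TILs, and in CD8+ TILs Slamf6, a marker of stem-like CD8+ T cells, was higher (178 ± 72.2 against 77.3 ± 26.9 CPM, log2 fold change 1.23, adjusted p = 0.0377) and Igfbp4 was lower (-1.50). With T-lineage scaling 3 of the 15 TCF/LEF partners were called lower in CD4+ TILs and 5 in CD8+ TILs. Of all genes 25.3% and 43.3% were called lower there. The mean melanocyte sum was 1306 CPM in Yap-cKO against 13212 CPM in WT CD4+ TILs, and 1298 against 11859 CPM in CD8+ TILs. The part of non-T cell RNA in the lower calls was not tested.

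Of the 10 IL-7 receptor partners tested, Jak1 (921 ± 327 against 373 ± 134 CPM, log2 fold change 1.33, edgeR adjusted p = 0.0293) and Bcl2l11 (1.57, adjusted p = 0.0464) were higher in Yap-cKO CD8+ TILs and none was called in CD4+ TILs. The shares of all genes called in CD8+ TILs were 3.03% higher and 9.14% lower. Of the sphingosine-1-phosphate genes, Cd69, whose product holds S1PR1 inside the cell, was higher in Yap-cKO CD8+ TILs (168 ± 75.1 against 55.4 ± 20.8 CPM, log2 fold change 1.63), while S1pr3, Spns2 and Sphk1 were lower. In the same libraries the mean endothelial sum was 78.6 CPM in Yap-cKO against 863 CPM in WT, and that of macrophage and monocyte genes 1339 against 451 CPM, both without overlap, and their part was not tested. Of 14 effector-associated genes, 4 were higher in Yap-cKO CD4+ TILs, where 1.36% of all genes were called higher. They were the integrin gene Itgae (2.10), Havcr2 (2.43), Prdm1, which encodes the repressor BLIMP1 (1.67), and Tox (1.38). Itgae was also called in CD8+ TILs (1.90). These calls were made on the scale on which T-lineage reads were higher in Yap-cKO libraries. With T-lineage scaling no gene of the naive, TCF/LEF, IL-7 receptor, sphingosine-1-phosphate or effector lists was called higher in Yap-cKO TILs of either sort. On that scale 0.12% of all genes were called higher in CD4+ TILs and 0.0425% in CD8+ TILs, so this absence was not particular to these lists.

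CD4+ and CD8+ T cells of the same tissue and genotype differed little in these genes. No member was called by edgeR or DESeq2 in any of the 4 comparisons, where 0.119% of 14266 genes were called in WT TILs, 3.76% of 12785 in WT TDLN cells, 2.49% of 13902 in Yap-cKO TILs and 2.49% of 12954 in Yap-cKO TDLN cells. The numbers of members at an unadjusted p under 0.05 were 0, 0, 2 and 2 of 9, against 3.79%, 12.6%, 10.3% and 11.3% of all genes in the same order. In WT TILs the largest absolute difference was 0.57, and every edgeR adjusted p was 1. Tcf7 was somewhat higher in CD4+ than in CD8+ node cells, by 0.34 in WT (without overlap) and 0.42 in Yap-cKO cells (adjusted p = 0.403). Bach2 changed order with tissue in Yap-cKO cells, with 101 to 178 CPM in CD4+ and 75.7 to 101 CPM in CD8+ node cells, and 12.1 to 24.3 CPM in CD4+ and 27.1 to 68.7 CPM in CD8+ TILs. The groups did not overlap in either tissue, and neither difference passed the test (log2 fold change 0.59, adjusted p = 0.323, and -1.12, adjusted p = 0.254).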

How the data were processed

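RNA from sorted cells was converted to SMART-Seq v4 Ultra Low Input libraries and sequenced. Per the labels and the submitters' processing notes, FastQC, Trimmomatic and Salmon 0.9.1 were used with mm10. The authors deposited 1 Salmon table per library, 48 in all, with an estimated count, not normalized, and a TPM for each of 112092 transcripts. The deposited TPM was scaled within each library by effective length. Salmon divides reads that fit several transcripts by a model, so transcript shares and genes with close copies carry that uncertainty.

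Transcripts were joined to GENCODE M21 by identifier without version. Of these, 111787 matched 34932 genes, and the unmatched share of counts was 0.0488% to 0.18% per library. Estimated counts were summed per gene and rounded. Genes reaching 10 counts in 4 or more libraries of a fit were tested with edgeR 4.0.16 (TMM factors, quasi-likelihood test, R 4.3.3), on the 8 libraries compared or the 16 of an interaction, with Benjamini-Hochberg adjustment over all tested genes. The threshold was an adjusted p of 0.05 together with a log2 fold change beyond 1 in either direction. CPM used TMM factors over 48 libraries. Marker sums and transcript shares were compared with two-sided exact permutation tests. Promoter windows came from RefSeq tables (GRCm38.p6). The fits were tested on simulated data.

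The members, companion lists and markers were chosen with earlier results of these data known. All 9 members are named, and of each companion list at most 4 called genes per comparison, those with the smallest p. Foxo1, Btg1 and Cdh5 were added as examples after their values were seen. For each member the 3 other genes with the nearest profile over group means are given (mean CPM of at least 5). Some genes that fall under these rules are not reported here. Transcripts with at least 10% of a gene's TPM in a T cell group were compared.

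Alternatives were DESeq2 1.42.0, no count filter, transcript length offsets, a replicate block, scaling to 15 T-lineage genes, a Y-linked covariate and leaving out each library. Omitting both WT CD8+ TIL libraries under 3000 CPM of T-lineage genes was added after seeing the data. Both TIL sorts came from the same tumors, but no source says that equal numbers mark 1 tumor. By the data, replicate numbers paired CD4+ with CD8+ libraries of WT TILs (correlation of deviations 0.123 to 0.744), WT TDLNs (0.433 to 0.836) and Yap-cKO TILs (0.162 to 0.65), and no other groups. All 48 libraries were used, and no pair within a group agreed within sampling noise (chi-square of counts per degree of freedom at least 19.3).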

Additional observations from a re-analysis of the deposited data

Results flagged for a closer look

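In 6 of the 108 combinations of a gene and a group, 1 library stood apart from the other 3 by a gap that exceeded Dixon's critical value for its share of the group's whole range, and chance gives about 5.4 such cases. Tcf7 was lowest in WT CD4+ TIL replicate 1, at 107 CPM against 329 to 371 CPM in the others, and that library also had the lowest T-lineage sum of its group. Ccr7 was highest in Yap-cKO CD8+ TIL replicate 1, at 1049 CPM against 384 to 471 CPM, and Bach2 was highest in the same library, at 68.7 CPM against 27.1 to 32.8 CPM. S1pr1 was highest in WT CD45+ CD4- CD8- TDLN replicate 3, at 1307 CPM against 636 to 743 CPM. Il7r was highest in WT CD8+ TDLN replicate 4, at 542 CPM against 79.3 to 133 CPM. Id3 was highest in Yap-cKO CD4+ TIL replicate 3, at 29.8 CPM against 8.66 to 12.3 CPM.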

How the results depend on the processing

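The 171 gene results gave 900 values under other settings, and 75 changed sign, of which 69 had neither value at an unadjusted p under 0.05. The 6 others were, with T-lineage scaling, Lef1 in Yap-cKO against WT CD4+ TILs (-0.95), Klf2 (0.02) and Il7r (0.15) in WT CD4+ TILs against TDLNs, and Tcf7 (-0.92) and Lef1 (-1.04) in the CD4+ interaction, and, with the Y-linked covariate, Ccr7 in Yap-cKO against WT CD4+ TDLNs (0.72). T-lineage scaling shifts all genes of a fit by its own construction, and for the other settings the cause was not tested. In counts of members called, Yap-cKO against WT CD4+ TILs gave 0 in the fit reported, 2 with DESeq2, and 1 without a count filter or with T-lineage scaling. CD8+ TILs gave 1, 2 with DESeq2, and 0 with the replicate block, with the Y-linked covariate and without both WT libraries low in T-lineage genes. TILs against TDLNs gave 4 in place of 8 in WT CD8+ and 3 in place of 7 in Yap-cKO CD8+ cells with T-lineage scaling. The interaction gave 1 in place of 0 with T-lineage scaling in CD4+ and in CD8+ cells and with DESeq2 in CD45+ CD4- CD8- cells. Over all genes DESeq2 called 582 higher and 1546 lower in Yap-cKO against WT CD4+ TILs, against 193 and 946 with edgeR.

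Leaving out single libraries gave 0 to 2 members called in Yap-cKO against WT CD4+ TILs (2 without Yap-cKO CD4+ TIL replicate 3) and 0 to 4 in CD8+ TILs (4 without WT CD8+ TIL replicate 3). TILs against TDLNs gave 6 to 7 in WT CD4+, 6 to 8 in Yap-cKO CD4+, 7 to 8 in WT CD8+, 4 to 7 in Yap-cKO CD8+ (4 without Yap-cKO CD8+ TIL replicate 2, when Klf2, Bach2 and Satb1 were lost) and 6 to 7 in WT CD45+ CD4- CD8- cells. The CD4+ interaction gave 0 to 1 (Id3 without Yap-cKO CD4+ TIL replicate 3). Of 1584 such values 1 reversed: Il7r in CD4+ against CD8+ cells of the WT TDLN ran from -0.58 to 0.99, the last without WT CD8+ TDLN replicate 4. The call of Il7r in WT CD4+ TILs against TDLNs was lost in 5 omissions (-1.50 to -0.67), in WT CD8+ cells in 5 (-1.76 to -0.50), and that of Id3 in Yap-cKO CD4+ cells in 5.

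The replicate block moved no count of called members by more than 1.5 times except in CD8+ TILs, where Il7r (1.76, adjusted p = 0.123) was lost. It also ended the call of Il7r in WT CD8+ TILs against TDLNs (-1.06, adjusted p = 0.136) and added Klf2 in WT CD4+ cells (-1.38, adjusted p = 0.0197). In these fits no source ties equal numbers and not every pair of deviations correlated above 0.1, although WT replicate 4 was the library without Y-linked expression in all 6 WT groups. In CD4+ against CD8+ cells, where they paired the libraries, the block changed no call. With 4 libraries a group, differences within the spread of a group, such as that of Ccr7 in nodes, could not be resolved.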

Other observations

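Likeness of profile was measured as the root-mean-square difference in log2 CPM over the 12 group means, each gene centred on its own mean, among 10626 other genes. The points share libraries and TMM factors, so these values are descriptions. Among the members themselves, S1pr1 and Satb1 were the closest pair (0.33), followed by Tcf7 and Lef1 (0.522), Klf2 and Bach2 (0.58) and Ccr7 and Bach2 (0.681), while Tcf7 and Ccr7 were 2.67 apart and Lef1 and Id3 2.84.

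Outside the list, genes near to Tcf7 included Prkcq (0.383), which encodes the kinase PKC-theta, and Vipr1 (0.386), and those near to Lef1 included the receptor segments Trbv15 (0.442) and Trav14n-1 (0.446). S1pr1 was nearest to Ablim1 (0.305), Foxo1 (0.340) and Ets1 (0.347), and Satb1 to Scml4 (0.300), Foxo1 (0.383) and Ablim1 (0.412). Foxo1, known as an activator of several naive genes, was thus among the 3 nearest genes for both. Klf2 was nearest to Ezr (0.178), Mocs3 (0.198) and Hif1an (0.221), Bach2 to Aff3 (0.304), Card6 (0.354) and Dgkd (0.372), and Ccr7 to Per2 (0.517), Irs2 (0.536) and Ripor2 (0.594). Il7r was nearest to Gbp8 (0.300), Atp10a (0.403) and Rundc3b (0.422), and Id3 to Colgalt1 (0.316), Atp6v1b2 (0.345) and Arl8b (0.361).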
